A study of Homo sapiens with 6 samples.

Results

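The clustered protocadherins are the genes of chromosome 5 whose symbols begin PCDHA, PCDHB or PCDHG. In GENCODE 44 on the hg38 build, 53 protein-coding genes meet this rule, out of 20033 protein-coding genes on the 24 chromosomes used. They comprise 15 PCDHA, 16 PCDHB and 22 PCDHG genes, all on the plus strand, and the rule uses symbols and positions only. Their chromatin was examined in the peak lists of a ChIP-seq experiment, in which DNA bound to antibody-selected histones is sequenced and stretches with many reads are called as peaks.

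The cells were labelled HepG2, a cell line derived from a liver carcinoma. They were grown in full medium with no addition (control) or with sodium benzoate (SB) at 10 mM for 24 h, and their chromatin was cut with micrococcal nuclease. A pan antibody to acetyllysine (Kac) or to benzoyllysine (Kbz) was used, so that the histone and the residue bearing the mark are not resolved. The series holds 6 libraries in 6 groups, with 1 library in each group. The lists of control Kac, SB Kac and SB Kbz were analysed, the labels state that peak calling found nothing in control Kbz, and the inputs were not analysed here.

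A clustered protocadherin is a cell-adhesion protein of the cadherin family that sits in the plasma membrane and binds the same isoform on an apposed cell. In the PCDHA and PCDHG clusters each gene has a promoter and a long first exon of its own, the variable exon, which is spliced to constant exons that all genes of the cluster share, whereas a PCDHB gene is essentially a single exon. Neurons are known to switch on only a few of the promoters in each cell, and most of these promoters carry a conserved element with a CGCT core, near which the architectural factor CTCF can bind. The C-type genes (PCDHAC1, PCDHAC2, PCDHGC3, PCDHGC4 and PCDHGC5) lie at the end of their clusters and are less dependent on that choice.

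To show what the promoters look like, upstream sequence from hg38 is printed for the member with the highest Kbz fold in each cluster and for the first member of each cluster that had no peak. The PCDHA cluster had no member with a peak. Each run is 200 bases long, reads 5′ to 3′ on the plus strand and stops before the outermost annotated start of the gene. Capitals mark each CGCT on that strand.
PCDHA1: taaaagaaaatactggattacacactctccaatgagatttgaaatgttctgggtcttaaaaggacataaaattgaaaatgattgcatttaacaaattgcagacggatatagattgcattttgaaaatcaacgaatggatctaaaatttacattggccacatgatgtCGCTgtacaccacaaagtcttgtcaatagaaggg
PCDHB14: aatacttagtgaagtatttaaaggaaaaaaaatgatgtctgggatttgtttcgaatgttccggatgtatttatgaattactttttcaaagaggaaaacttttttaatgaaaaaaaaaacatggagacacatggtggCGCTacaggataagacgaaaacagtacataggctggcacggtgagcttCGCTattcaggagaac
PCDHB1: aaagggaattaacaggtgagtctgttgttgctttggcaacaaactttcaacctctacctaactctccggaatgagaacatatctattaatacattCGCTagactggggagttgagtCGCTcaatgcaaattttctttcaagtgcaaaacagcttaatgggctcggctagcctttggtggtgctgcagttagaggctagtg
PCDHGC4: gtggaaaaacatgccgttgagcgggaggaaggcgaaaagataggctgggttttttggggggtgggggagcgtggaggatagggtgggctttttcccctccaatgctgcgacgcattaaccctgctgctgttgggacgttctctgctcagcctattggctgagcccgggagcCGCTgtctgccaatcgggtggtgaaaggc
PCDHGA2: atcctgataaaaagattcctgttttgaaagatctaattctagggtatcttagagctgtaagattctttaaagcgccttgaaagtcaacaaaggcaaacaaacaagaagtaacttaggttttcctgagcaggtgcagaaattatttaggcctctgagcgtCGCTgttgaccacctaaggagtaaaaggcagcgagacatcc
PCDHA1 is shown from chr5:140785936-140786135, PCDHB14 from chr5:141223143-141223342, PCDHB1 from chr5:141051174-141051373, PCDHGC4 from chr5:141484797-141484996 and PCDHGA2 from chr5:141338560-141338759. PCDHB14 and PCDHGC4 had peaks in all 3 lists. The PCDHB14 run was AT-rich, with a GC content of 35.5% and 6 CpG, and PCDHGC4 had 59.0% and 10 CpG. PCDHA1 had 33.5% and 3 CpG, PCDHB1 43.5% and 4 CpG, and PCDHGA2 40.5% and 4 CpG.

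Each cluster had its own commonest word around the CGCT core, and other words were shared between clusters. In windows from 250 bases before to 50 bases after the canonical transcription start site (TSS, the start of the transcript that the annotation marks as representative), CGCT was found on the transcript strand in 51 of 53 members (96.2%), against 66.5% of all protein-coding windows. PCDHA9 and PCDHGC5 lacked it. The commonest words of 8 letters with this core were ATGTCGCT in PCDHA, held by 10 of 15 members and by 0.185% of all protein-coding windows, GTGGCGCT in PCDHB, held by 14 of 16 and 0.923%, and GCCGCTGT in PCDHG, held by 12 of 22 and 1.17%. No member of another cluster held the word of a given cluster. GTCGCTGT, by contrast, was held by 6 PCDHA and 6 PCDHG members and by 0.439% of protein-coding windows. These words were picked for being the commonest, so their counts are a description. The stretches below show, for the first 3 members in gene order with each word upstream of the gene's outermost start, 40 bases with the word in capitals.
PCDHA1: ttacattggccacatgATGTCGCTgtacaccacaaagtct
PCDHA2: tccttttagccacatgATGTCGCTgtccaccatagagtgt
PCDHA4: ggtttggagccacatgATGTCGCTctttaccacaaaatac
PCDHB2: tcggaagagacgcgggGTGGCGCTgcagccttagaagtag
PCDHB3: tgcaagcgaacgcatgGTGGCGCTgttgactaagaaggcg
PCDHB4: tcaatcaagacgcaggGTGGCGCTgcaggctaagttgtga
PCDHGA1: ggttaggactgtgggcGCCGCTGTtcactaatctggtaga
PCDHGB1: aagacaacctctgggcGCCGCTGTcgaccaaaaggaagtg
PCDHGA7: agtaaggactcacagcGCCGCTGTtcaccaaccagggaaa
Counted from the canonical TSS, with negative positions upstream, the word began between -85 and -42 in PCDHA. In PCDHB the word began between -85 and -1, with a median of -65.5. In PCDHG it began between -97 and 33, with a median also of -65.5. PCDHGA1 and PCDHGA7 were the members of this set with a peak. The word was present in 4 of the 4 PCDHB members with a peak and 10 of the 12 without, and in 5 of 6 and 7 of 16 PCDHG members. The letters TATAA occurred anywhere in the window in 21 of 53 members (39.6%), and in 2 of the 10 members with a peak. They occurred in 12.9% of protein-coding windows and in 24.8% of those without a peak. Member windows had less GC (median 39.3% against 63.7%) and no position was required, so a hit is not shown to be a TATA box. The core consensus of CTCF, searched by that name on both strands, had no match in these windows in any of the 53 members and one in 0.469% of protein-coding windows, which speaks only for these letters in this window.

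Before the members are described, the labelled cell type was set against marker genes. Of 11 genes typical of liver, a peak within 1 kb of the canonical TSS was called for 1 in control Kac, APOA1, and for 0 in SB Kac and Kbz. Of all protein-coding genes, 68.9%, 68.2% and 57.3% had one. The other 10 genes, among them ALB, APOB, SERPINA1 and FOXA2, had no peak there in any list. With any annotated start and 3 kb to each side, 6, 6 and 1 of the 11 had a peak, and ALB, APOB, FGB, FOXA2 and SERPINA1 still had none. Of 12 genes typical of neurons, where clustered protocadherins are best known, 7, 7 and 5 had a peak within 1 kb (58.3%, 58.3% and 41.7%), below the 68.9%, 68.2% and 57.3% of all protein-coding genes, and 8, 8 and 7 had one with any annotated start and 3 kb. The shares of all protein-coding genes are for 1 kb at the canonical TSS, and none is given here for any start and 3 kb. CpG in the 300-base window at the TSS ranged from 0 (FGB) to 30 (FOXA2) in the liver genes. In the neuron genes it ranged from 2 (DCX) to 47 (TUBB3). Of 4411 protein-coding genes outside the clusters with at most 7 CpG, 25.3%, 22.4% and 8.86% had a peak within 1 kb. The marker sets were not matched for CpG, so their counts are not like for like. The bearing of these marker calls on the protocadherin calls was not tested.

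Most clustered protocadherins had no peak at their start. In the control Kac list 9 of 53 members (17.0%, 95% Wilson interval 9.20 to 29.2) had a peak within 1 kb of the canonical TSS, where 68.9% of all protein-coding genes had one. In the SB Kac list these were 6 members (11.3%, 5.29 to 22.6), against 68.2%, and in the SB Kbz list 5 members (9.43%, 4.10 to 20.3), against 57.3%. At a −log10 q of at least 2, which is the stated FDR of 0.01, the Kac counts were the same and Kbz was left at 3 members. A peak of any list was found at 10 members (18.9%), against 71.5%. The intervals cover counting error only, and they treat neighbouring genes as independent. The lists were called with 1 library each, so no value below has an error between replicates and no test between control and SB could be made. The depth of the libraries is unknown, and a gene without a peak was not called at this depth, which does not show that it lacked the mark.

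The counts of called members were not equal in the clusters. In PCDHA, 0 of 15 members had a peak in any list, which allows a share of up to 20.4% by the Wilson bound. PCDHB had 4 of 16 members with control Kac, 1 with SB Kac and 1 with Kbz. PCDHG had 5 of 22 with control Kac, 5 with SB Kac and 4 with Kbz. For a peak of any list the intervals were 10.2% to 49.5% in PCDHB and 13.2% to 48.2% in PCDHG. Both overlap that of PCDHA, so the clusters are not shown to differ. Within PCDHG, the calls lay at 4 of the 12 PCDHGA genes and 2 of the 3 PCDHGC genes. Of the 7 PCDHGB genes, which alternate with PCDHGA genes along the cluster, 0 had a peak. The Wilson bound for PCDHGB, 35.4%, lies within the interval for PCDHGA, 13.8% to 60.9%, so the 2 groups are not shown to differ. Of the 5 C-type genes, PCDHGC3 and PCDHGC4 were called, and PCDHAC1, PCDHAC2 and PCDHGC5 were not.

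**Figure D1:**
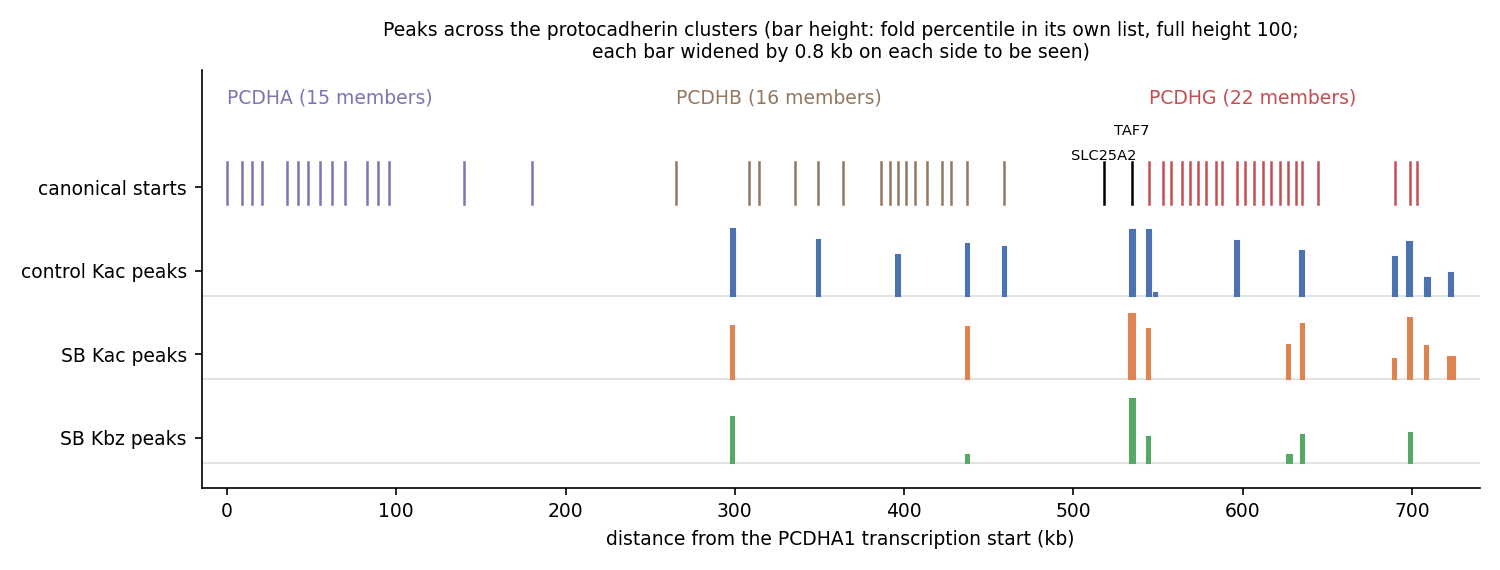
Map of the 3 clusters, with distance from the PCDHA1 transcription start in kb on the x axis. Ticks are canonical starts of the 53 members and of TAF7 and SLC25A2, and bars are the peaks of each list, as high as the percentile of their fold in that list; no bar lies over PCDHA, where 0 of 15 members had a peak.

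Calls in PCDHB were mainly in control Kac. The fold given below is the authors' ratio of reads in the peak to the background, averaged over the peak, and it is followed by its percentile among all peaks of the same list, since folds of separate libraries are not on 1 scale. PCDHB5 had a control Kac peak at 141135241 to 141135718 with a fold of 4.23 (percentile 83.4), and no SB peak. At PCDHB15 the control Kac peak, 141245429 to 141245723, had a fold of 3.76 (percentile 73.3). Both began a few bases inside the gene, 35 and 34 bp downstream of the TSS. PCDHB16 had the lowest control Kac fold of the cluster's marked members, 3.36 (percentile 60.9) at 141182376 to 141182675, over its TSS. The annotated start of a long non-coding RNA also lies in this peak. For these 3 genes the SB Kac and Kbz lists held nothing within 3 kb.

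PCDHB14 was the member of its cluster with peaks in all 3 lists. Its control Kac peak reached from 141223268 to 141223846 with a fold of 3.94 (percentile 77.7), and its SB Kac peak from 141223298 to 141223634 with a fold of 4.07 (percentile 78.8). Both covered the TSS, at 141223343, and ranked alike in their lists. The Kbz peak, 141223373 to 141223868, had a fold of 2.94 and stood at percentile 12.4, far lower in its list than the Kac peaks in theirs. Its −log10 q of 1.81 does not reach the stated FDR. The start of an unnamed protein-coding gene, 29 bp from that of PCDHB14, lies in the Kac peaks, so that the calls cannot be given to either gene alone.

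In PCDHG, PCDHGA1, the gene at the start of the cluster, had the highest-ranked control Kac peak of all members. This peak, 141330383 to 141330956, had a fold of 5.81 (percentile 97.9). In SB the Kac peak at 141330370 to 141330829 had a fold of 3.86 (percentile 75.5), and the Kbz peak at 141330552 to 141330831 a fold of 3.56 (percentile 37.9). PCDHGA1 was therefore called in each list, at a lower rank after SB for Kac. PCDHGA7 had control Kac alone, at 141382631 to 141383025 with a fold of 4.15 (percentile 81.9).

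PCDHGA10 was the member with Kac in SB and not in control. Its SB Kac peak, 141412962 to 141413266, had a fold of 2.996 (percentile 50.7). Its Kbz peak was the longest of a member, 1248 bp from 141413097 to 141414344, and had the lowest Kbz fold of a member, 2.93 (percentile 12.1), with a −log10 q of 1.72, short of the stated FDR. PCDHGA11, the next marked gene, had control Kac at 141420979 to 141421568 with a fold of 3.55 (percentile 67.3). SB Kac at 141421069 to 141421568 ended at the same base and had a fold of 4.33 (percentile 82.3), and Kbz at 141421152 to 141421692 a fold of 3.65 (percentile 40.9). Here the Kac rank was higher in the SB list.

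The C-type genes PCDHGC3 and PCDHGC4 differed in Kbz. PCDHGC3 had control Kac at 141475787 to 141476269 with a fold of 3.29 (percentile 58.3), SB Kac at 141475628 to 141476123 with a fold of 2.70 (percentile 30.1), and no Kbz peak. It was the only member with SB Kac and no Kbz. PCDHGC4 had the widest Kac peaks of the members, 1714 bp in control (141483858 to 141485571, fold 4.06, percentile 80.2) and 1126 bp in SB (141484462 to 141485587, fold 5.34, percentile 91.9). Its Kbz peak, 141485063 to 141485425, had the highest Kbz fold of the members, 3.77, which stood at percentile 45.2. The uncalled C-type gene PCDHGC5 starts 3494 bp from the end of the SB Kac peak of PCDHGC4, the distance to its nearest SB Kac peak.

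**Figure D2:**
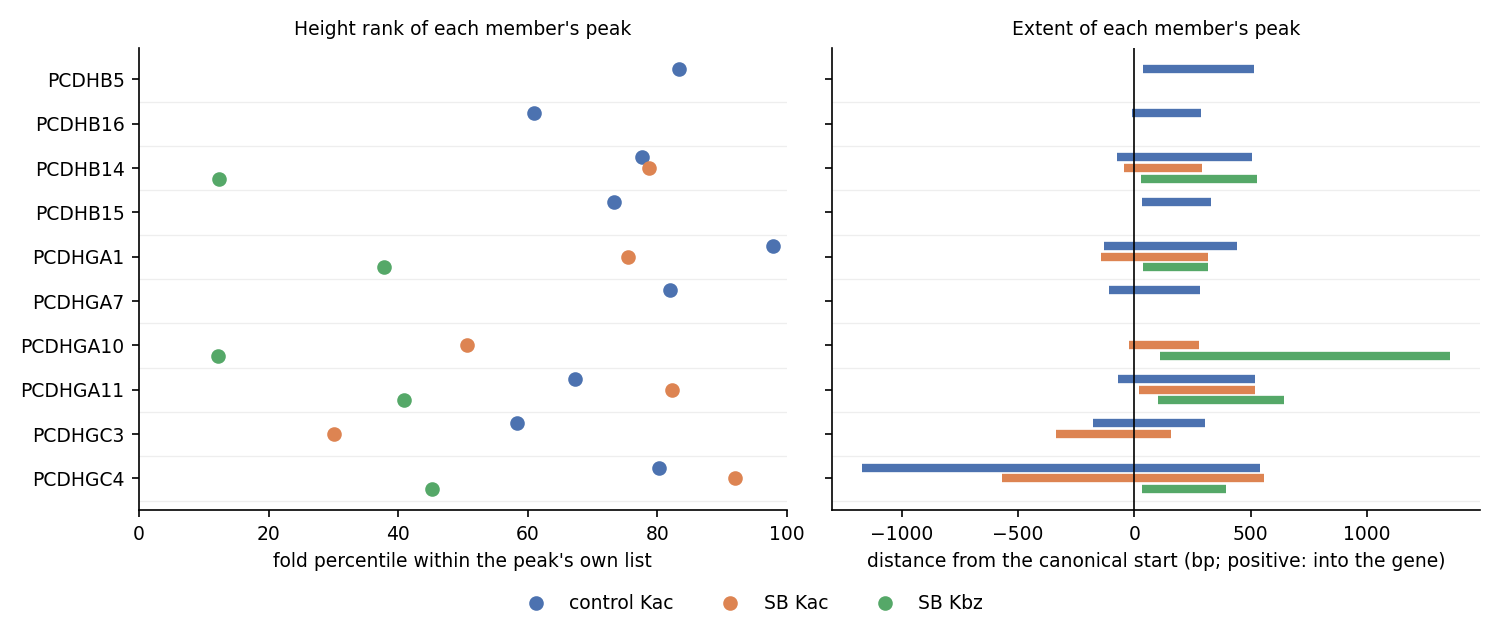
The 10 members with a peak, in gene order. Left, percentile of the fold in the peak's own list, where the 5 Kbz points lie between 12.1 and 45.2; right, extent of each peak in bp from the canonical start, where each Kbz peak begins 30 to 110 bp inside the gene.

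Between the Kac lists, 5 members (9.43%) had a peak in both, against 65.6% of all protein-coding genes: PCDHB14, PCDHGA1, PCDHGA11, PCDHGC3 and PCDHGC4. In control only there were 4 (7.55%), PCDHB5, PCDHB15, PCDHB16 and PCDHGA7, and 3.26% of all protein-coding genes were called in that way. In SB only there was 1 (1.89%), PCDHGA10, against 2.62%. Taken over the genes with control Kac, control only was 4 of 9 members and 654 of 13795 protein-coding genes. Over the genes with SB Kac, SB only was 1 of 6 members and 525 of 13666 protein-coding genes. The 4 members with control Kac only stood at percentiles 60.9 to 83.4 of the control list, and the 5 called in both at 58.3 to 97.9, so the ranges overlapped. A call in 1 list and not in the other is a matter of a threshold, and with 1 library a group it is not shown to be a change with SB.

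All 5 members with Kbz also had SB Kac, and 4 of them control Kac. Of the 11474 protein-coding genes with Kbz, 11387 were in all 3 lists, so such overlap was general and not particular to members. SB Kac without Kbz was seen at 1 member (1.89%), against 11.1% of protein-coding genes. Taken over the genes with SB Kac, this was 1 of 6 members (16.7%) and 16.3% of 13666 protein-coding genes, about the same share. At a −log10 q of at least 2 it was seen at 3 members. The sizes of the peaks were less alike. Control Kac, SB Kac and Kbz peaks of members had median lengths of 483, 478 and 496 bp, and all peaks at protein-coding starts had medians of 2534, 2645 and 1616 bp. The median percentile of fold was 77.7 for control Kac and 77.1 for SB Kac at members, and 81.2 and 84.9 at all protein-coding starts. For Kbz it was 37.9 at members and 66.5 at all protein-coding starts. The Kbz peaks of members were thus short and from the lower part of their list, whereas the Kac peaks of members were short but ranked near the promoter peaks of other genes.

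The Kbz peaks of members lay inside the gene. All 5 began downstream of the TSS, by 30 bp at PCDHB14, 33 bp at PCDHGC4, 38 bp at PCDHGA1, 101 bp at PCDHGA11 and 110 bp at PCDHGA10, in the first exon. The peaks of PCDHB14 and PCDHGA10 did not reach the stated FDR of 0.01. None of the 5 covered the TSS, whereas the Kbz peaks of 79.9% of the protein-coding genes called for Kbz did, and 8.32% of those genes had Kbz peaks on the downstream side only. Shorter peaks covered the TSS less often: among the 3205 genes whose Kbz peaks were no longer than the longest one of a member, 1248 bp, 44.1% had the TSS covered. PCDHGA10 alone set that bound. The other Kbz peaks of members were 280 to 541 bp long, so these genes are not matched to them in length. Kac peaks covered the TSS at 7 of 9 members in control, with 85.8% of the called protein-coding genes, and at 5 of 6 in SB, with 88.5%. Among genes whose Kac peaks were no longer than the longest one of a member, 61.9% in control and 44.5% in SB had the TSS covered. PCDHGC4 set these bounds, 1714 and 1126 bp, while the members' medians were 483 and 478 bp. These genes are therefore not matched in length either. SB Kac peaks covered 100% of the Kbz peak at PCDHGC4, 99.3% at PCDHGA1, 77.1% at PCDHGA11, 52.8% at PCDHB14 and 13.6% at PCDHGA10.

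**Figure D3:**
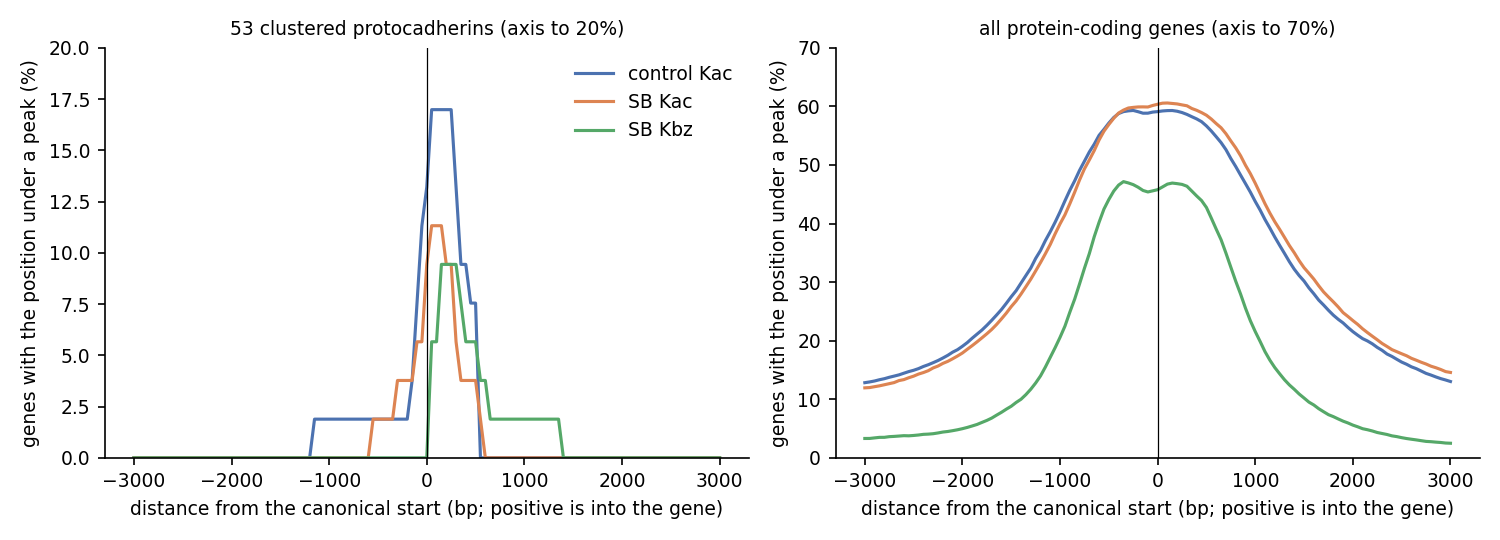
Share of genes (%) whose position at a given distance in bp from the canonical start lies under a peak, for the 53 members (left, axis to 20%) and for all protein-coding genes (right, axis to 70%), with a line for each list. At members the Kbz line is at 0 at the start and at 9.43% 150 bp into the gene, while over all protein-coding genes it is at 45.8% and 46.9%.

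Outside the starts, few peaks lay in the clusters. The spans of the 3 clusters, from the first to the last base of the member genes, were overlapped by 13 peaks of control Kac, 9 of SB Kac and 6 of Kbz. The span of PCDHA, 226 kb, held none. Peaks in PCDHB covered, in the order control Kac, SB Kac and Kbz, 1.15%, 0.439% and 0.426% of its 198 kb, and peaks in PCDHG 3.53%, 3.14% and 1.33% of 182 kb. The lists covered 4.44%, 3.93% and 1.10% of the genome without its gaps, so PCDHG was near the genome-wide coverage in each list and PCDHB below it. By number the order was another, as the peaks were short. PCDHG held 4.38, 3.84 and 2.19 peaks per 100 kb, above the 2.39, 2.15 and 0.827 of the genome. PCDHB held 2.53, 1.01 and 1.01, above the genome in control Kac and Kbz and below it in SB Kac. The PCDHB values rest on 5, 2 and 2 peaks.

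In control Kac and in Kbz the peak of highest fold in the spans was not at a member's start but between PCDHB1 and PCDHB2, 9436 to 9596 bp upstream of the PCDHB2 start. The control Kac peak there, 141084549 to 141085179, had a fold of 7.14 and stood at percentile 99.8 of the list. SB Kac at 141084607 to 141085138 had a fold of 4.18 (percentile 80.4), and Kbz at 141084673 to 141085019 a fold of 4.61 (percentile 67.9). In SB Kac the peaks of PCDHGC4 and PCDHGA11 had higher folds. All 3 lie in the body of an antisense RNA gene, PCDHB1-AS1, and touch no annotated exon. Over the part of PCDHG that holds the constant exons, control Kac peaks at 141494879 to 141496127 and 141508837 to 141509757 and SB Kac peaks at 141494653 to 141494938 and 141508186 to 141510884 were called, at percentiles 26.1 to 49.8, with no Kbz peak. A control Kac peak at 141334260 to 141334906, over the gene body of PCDHGA1, was weaker still (fold 2.42, percentile 4.33).

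The protein-coding genes between PCDHB and PCDHG differed from each other in the calls. TAF7, which encodes a subunit of the general transcription factor TFIID and lies between PCDHB and PCDHG, had peaks over its start at percentiles 98.9 (control Kac), 98.3 (SB Kac) and 95.2 (Kbz). SLC25A2, a mitochondrial carrier gene beside it with 30 CpG in its window, had none. Of the 17 other protein-coding genes that start within 200 kb of the clusters, 14 had a peak in each of the 3 lists, and CD14, DND1 and SLC25A2 had none. Those 14 include the unnamed gene that shares the peaks of PCDHB14. Of the 6 protocadherin pseudogenes inside the clusters, none had a peak.

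The PCDHA cluster lay in a stretch of 358 kb without a peak of any list, from 140726266 to 141084548. Of 86652 such stretches in the genome, 999 were at least as long, so that it stood at percentile 98.8 by length. Most stretches were short, with a median of 7.14 kb, and 31.3% of bases lay in longer ones, so a stretch of this length is not rare by bases. It held 16 protein-coding starts, those of the 15 PCDHA genes and of PCDHB1. The median for stretches of at least that length was 0 starts, and 17 of the 999, this stretch included, held 16 or more. Of each list on its own, the stretch measured 358, 364 and 358 kb, in the same order of lists.

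Near-identical copies can hide peaks, because reads that match several places were removed by the authors. Of the 50-base words of each span, 93.9% were unique in hg38 in PCDHA, 89.8% in PCDHB and 93.9% in PCDHG. Copies on the alternate contigs of the build, which are further versions of some regions, were left out of these shares. In the windows of 1 kb to each side of the TSS, the share was 93.6% to 100% at the 10 members with a peak and 61.2% to 100% at the 43 without, of which 29 were no less unique than the least unique marked member. The lowest shares were at PCDHB13 (61.2%), PCDHB8 (62.3%), PCDHA9 (69.1%) and PCDHA7 (71.7%), where a missing peak says least. Among the uncalled PCDHGB genes, PCDHGB4 and PCDHGB5 (76.2%) and PCDHGB6 and PCDHGB7 (88.4%) were also below the least unique marked member. PCDHAC2, PCDHB1 and PCDHGC5, at 100%, had no peak either.

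The CpG content of called members overlapped that of the rest. The 300-base windows of members held a median of 7 CpG (2 to 27), against 23 for all protein-coding genes, and their median GC content was 39.3%, against 63.7%. Members with a peak and members without had the same median of 7 CpG, while protein-coding genes with a peak had 27 and those without 6. PCDHGC4 (23 CpG) and PCDHGC3 (18) were among the members richest in CpG and had peaks, and PCDHAC1 (27), PCDHGB6 (16) and PCDHAC2 (15) had none. PCDHGA1, with 4 CpG, had the control Kac peak of highest fold among members. Of the 31 members with at most 7 CpG, 5 (16.1%) had a peak of any list, and of the 4411 other protein-coding genes with so few, 29.4% had. For control Kac these shares were 12.9% and 25.3%, for SB Kac 6.45% and 22.4%, and for Kbz 6.45% and 8.86%.

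**Figure D4:**
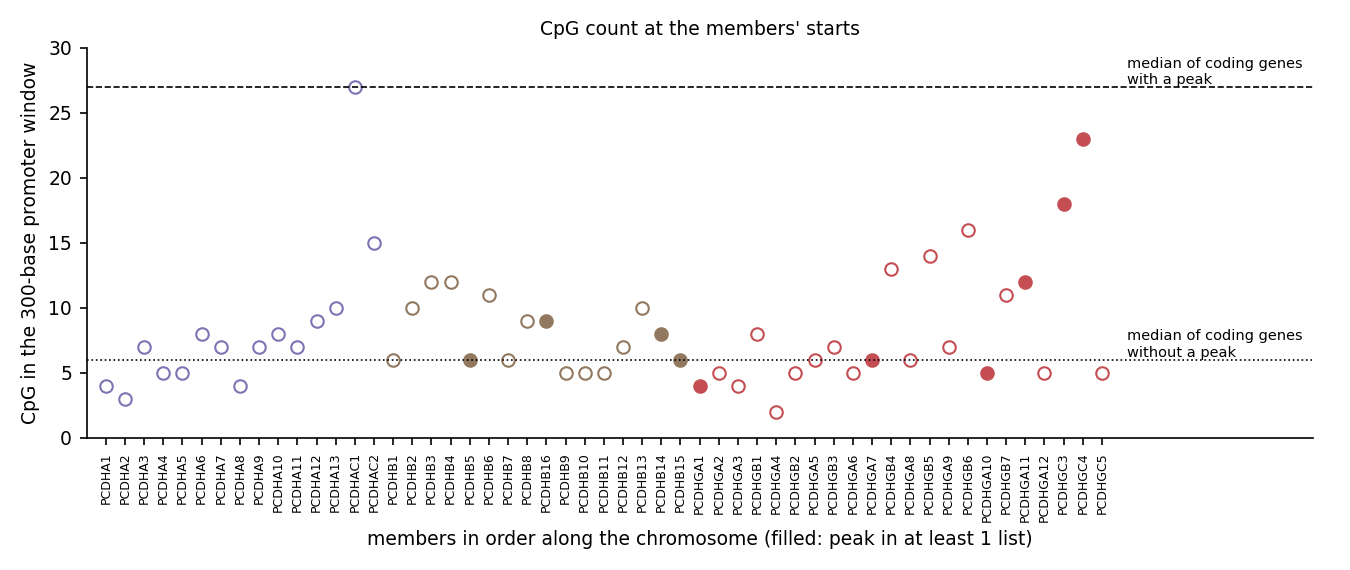
Number of CpG in the 300-base window at the start of each of the 53 members, in chromosome order, filled where a peak was called in at least 1 list. Dashed and dotted lines are the medians of protein-coding genes with (27) and without (6) a peak; filled and open points overlap, from 4 to 23 and from 2 to 27 CpG.

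Other gene clusters gave both higher and lower shares. Of 39 HOX genes, which pattern the body axis, 37 had control Kac, 38 SB Kac and 34 Kbz (94.9%, 97.4% and 87.2%). The zinc finger genes of chromosome 19, also a family of tandem copies, stood at 64.7%, 66.3% and 64.3% of 249. Of 55 keratin genes, 12, 11 and 3 had a peak, with KRT8 and KRT18, the keratins of simple epithelia, in all lists. Of 178 olfactory receptor genes of chromosome 11, 2, 1 and 0 had. The protocadherins, at 17.0%, 11.3% and 9.43%, lay between the olfactory receptors and the zinc finger genes in each list, and their intervals overlapped those of the keratins.

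Protocadherins outside the clusters were mostly called for Kac. Of 12 such genes 10 had control Kac, 10 SB Kac and 5 Kbz (83.3%, 83.3% and 41.7%), beside 68.9%, 68.2% and 57.3% of all protein-coding genes. PCDH7, PCDH9, PCDH10, PCDH18 and PCDH20 had peaks in all 3 lists, PCDH8 had control Kac only, PCDH19 SB Kac only and PCDH11X none. Among 16 genes whose products shape or silence the clusters, such as CTCF, the cohesin subunits RAD21, SMC1A and SMC3, the cohesin remover WAPL, the repressor SMCHD1 and the methyltransferases DNMT1, DNMT3A, DNMT3B and SETDB1, all 16 had Kac in both lists and 14 had Kbz, with DNMT3A and RAD21 the exceptions. Of 14 genes for binding partners, kinases and proteases of the proteins, 12 had control Kac, 12 SB Kac and 9 Kbz (85.7%, 85.7% and 64.3%). CYFIP2 and WASF1, of the actin-regulating WAVE complex, and PTK2, a focal adhesion kinase, had all 3, FYN control Kac only, CYFIP1 SB Kac only and PTK2B none.

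**Figure D5:**
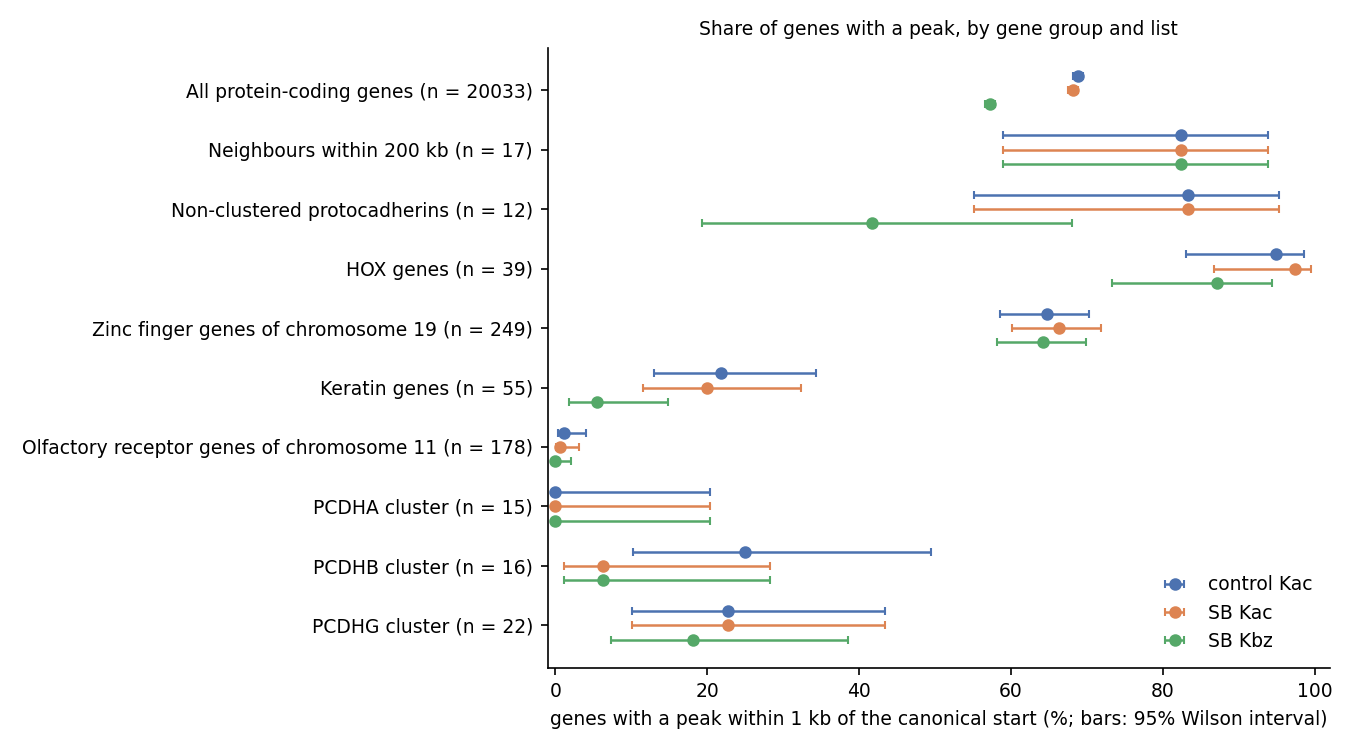
Share of genes (%) with a peak within 1 kb of the canonical start, for each list, in the 3 protocadherin clusters and in other gene groups, with 95% Wilson intervals as bars. PCDHA is at 0% in each list, PCDHB at 25.0%, 6.25% and 6.25% and PCDHG at 22.7%, 22.7% and 18.2%, below the 82.4% of their neighbours.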

How the data were processed

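Data were 3 broad peak lists from cells labelled HepG2, each of 1 library: control Kac, SB Kac and SB Kbz (SB at 10 mM for 24 h). Per the labels and the study's methods, the authors sequenced 50-base single reads, aligned them to hg38 with Bowtie2 2.2.6, kept uniquely mapped reads, removed duplicates with SAMtools 0.1.19 and called peaks with MACS2 2.1.1 at an FDR of 0.01. The deposited values are a fold (a linear ratio over background, averaged over the peak) and −log10 p and −log10 q per peak. In all lists the deposited −log10 q goes down to 1.31, which is weaker than the stated FDR. The lists give no read totals, so depth is unknown. After peaks on 24 chromosomes were kept, the lists held 70326, 63282 and 24308 peaks.

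A gene was called when a peak overlapped the window 1 kb to each side of its Ensembl canonical TSS in GENCODE 44 by at least 1 bp, and in peak values the peak of highest fold there was used. Clusters, peak-free stretches, 50-base words and promoter letters were computed from the hg38 sequence. Coordinates are 1-based on chromosome 5 of hg38. With 1 library per group no test was run, and Wilson 95% intervals cover counting error only. The members, marker lists and gene lists were chosen with earlier results of these data known. A liver marker of that list is not reported here. Full values are given for every member with a peak. The stretches around the commonest words, the count of markers at any start and the comparison at low CpG were chosen after the values were seen. Calling of genes was checked with simulated peaks over 20033 genes: of 2000 planted within the window of a start 100% were recovered, and 2000 planted outside gave 0 calls. Tools were pandas 2.3.3, NumPy 2.4.6, matplotlib 3.10.9, numba 0.67.0 and SciPy 1.17.1 in Python 3.11.15. Alternatives were stricter −log10 q, equal list lengths, other windows and starts, nearest-gene assignment and merged peaks.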

Additional observations from a re-analysis of the deposited data

How the results depend on the processing

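Under 8 alternatives the 9 counts were recomputed 54 times in all, and 35 values stayed within 1.5 times of the original. A window of 3 kb and any annotated start changed no count. At a −log10 q of at least 2, Kbz members fell from 5 to 3 (PCDHGA1, PCDHGA11 and PCDHGC4), and members with SB Kac and no Kbz rose to 3. At a −log10 q of at least 5, 4 members had control Kac, 3 SB Kac and 0 Kbz; 2 had Kac in SB only and 3 SB Kac with no Kbz, and the clusters held 5 control Kac, 4 SB Kac and 1 Kbz peak. With the 15000 peaks of highest −log10 p, 2 members had control Kac, 2 SB Kac and 1 Kbz (PCDHGC4), 1 had control Kac only, and the clusters held 3, 2 and 2 peaks. These settings keep fewer peaks. When the peak had to cover the TSS, Kbz members fell to 0 and members with SB Kac and no Kbz rose to 5. The PCDHA span held no peak, and the peak nearest to a canonical PCDHA start was 59875 bp away. No alternative added peaks or looked further than 3 kb, so none could call a PCDHA gene. Giving each peak to the nearest start passed the PCDHB14 peaks to its unnamed neighbour. No paired analysis was possible because the groups hold 1 library each, and no replicate could be left out. The depth of the libraries is unknown, so a difference in the number of calls between lists may be one of depth.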
